A study of Rattus norvegicus with 8 samples.

Results

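The mRNAs described here encode 10 proteins that build or remodel the actin cytoskeleton of dendritic spines, chosen by gene symbol: Actb, Cfl1, Dbn1, Baiap2, Srcin1, Ppp1r9a, Ppp1r9b, Wasf1, Wasf3 and Limk1. All 10 were among the 28909 symbols of the count table, and all 10 were among the 14309 genes that had more than 20 reads in at least 2 libraries and were tested. Primary embryonic hippocampal neurons of Sprague-Dawley rats had been grown on porous filter inserts, with somata on the upper side and processes reaching the lower side, and total RNA of each side was sequenced after ribosomal depletion. The somatic and the process compartment were each collected after 20 days in vitro from cultures that had received, from day 18 on, 100 μM picrotoxin (PTX, a blocker of GABA-A receptors) or its vehicle, ethanol, for 48 h. Each of the 4 conditions had 2 libraries, 8 in all. No purification of neurons is named in the sources used here, so each compartment may hold RNA of any cell type on that side of the filter.

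Spines are the small protrusions that carry most excitatory synapses, and their shape rests on a dense network of actin filaments. The Arp2/3 complex, switched on by the WAVE complex downstream of the GTPase Rac1, starts new filament branches. Cofilin severs filaments and is itself held inactive when LIM kinase phosphorylates it, while drebrin and the scaffold proteins spinophilin and neurabin bind along filaments and place enzymes there. Chronic block of inhibition with PTX raises network activity, and neurons then scale down their excitatory synapses over days. The comparisons below ask where these mRNAs lay, in somata or in processes, and how their levels stood after PTX in each compartment.

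Library totals ranged from 12290890 to 14520831 counts in somata and from 15120334 to 18455662 in processes. Mitochondrial rRNA took 21.1% to 24.8% of the counts in somata and 64.9% to 68.3% in processes, so that the genes outside the mitochondrial genome shared 9517542 to 11227599 counts per library in somata and 4702054 to 5491237 in processes. Levels are given as CPM after TMM scaling, that is, counts per 1000000 of a library size adjusted by the trimmed mean method, which sets the bulk of genes equal between libraries. A level in processes is therefore a level relative to the other transcripts there, not an amount of RNA per culture. Levels are compared between conditions for one gene and never between genes, because the counts were not divided by transcript length. Replicate libraries of a condition correlated with r = 0.978 to 0.987 across genes. Whether they came from separate cultures is not given in the labels, so the p-values measure the spread between these libraries.

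Among neuron markers, the 6 genes Map2, Rbfox3, Tubb3, Syp, Stmn2 and Nefl summed to 1670 to 1841 CPM in vehicle somata and 5083 to 5424 CPM in vehicle processes. The 6 astrocyte markers, Gfap among them, summed to 3560 to 3931 CPM in vehicle somata and 11391 to 13057 CPM in vehicle processes. These sums were carried by Map2 and Gfap, which stood 2.30 and 2.60 higher in vehicle processes on the log2 scale. Of each set of 6, 2 were called higher and 2 lower in vehicle processes, with a median log2 fold change of -0.02 for neuron and 0.25 for astrocyte markers. In that comparison 47.7% of all tested genes were called. The 6 markers of the oligodendrocyte lineage summed to 140 to 294 CPM over the 8 libraries and the 6 fibroblast and mural markers to 21.2 to 61.7 CPM. Microglial markers reached at most 1.47 CPM in sum and endothelial markers at most 1.44 CPM, with Cldn5 at 0 reads in every library. Since the libraries are bulk RNA, fewer cells of a type and less RNA per cell cannot be told apart.

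**Figure D1:**
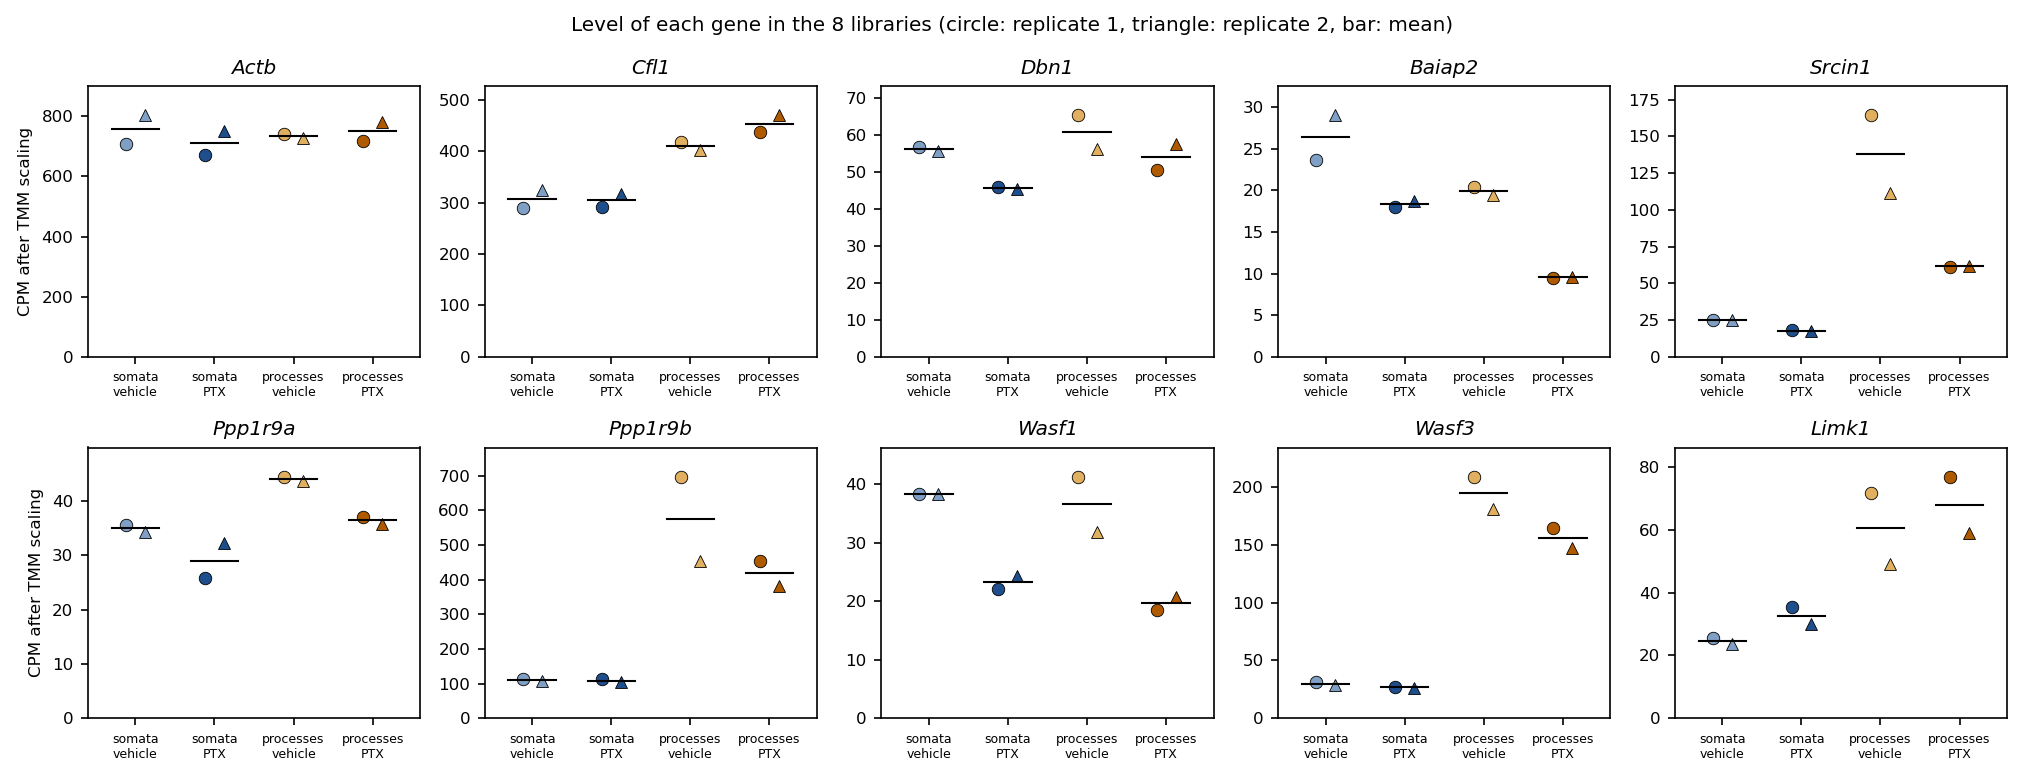
Level of each of the 10 genes in the 8 libraries, in CPM after TMM scaling on a linear axis that starts at 0 and is scaled for each gene. Circles are replicate 1, triangles replicate 2 and bars the mean of both. Wasf3, Srcin1, Ppp1r9b, Limk1, Cfl1 and, by a narrow margin, Ppp1r9a stand higher in every process library than in any somata library. Baiap2, Wasf1, Srcin1, Ppp1r9a and Wasf3 have both PTX libraries below both vehicle libraries in each compartment. Of these, Baiap2 and Wasf1 were called in both compartments in the main fit, Srcin1 in processes only, and Ppp1r9a and Wasf3 in neither. The share of all genes with either kind of separation was not determined.

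In vehicle cultures, the 4 largest process-to-somata ratios among the 10 mRNAs were those of Wasf3, Srcin1, Ppp1r9b and Limk1, the last at 2.47-fold. Cfl1 and Ppp1r9a were higher in processes by smaller factors, Baiap2 was lower, and Actb, Dbn1 and Wasf1 did not pass the test. By edgeR's quasi-likelihood test with Benjamini-Hochberg adjustment at 0.05, 7 of 10 were called, 6 higher and 1 lower. Among all tested genes 47.7% were called, 25.8% higher and 21.9% lower. The median log2 fold change of the 10 genes was 0.37, against -0.05 over all tested genes.

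Wasf3 and Wasf1 encode WAVE3 and WAVE1, subunits through which the WAVE complex activates Arp2/3. Wasf3 was measured at 31.2 and 28.9 CPM in vehicle somata and at 209 and 181 CPM in vehicle processes. Its lowest process library lay far above its highest somata library, with a log2 fold change of 2.70 (SE 0.121, adjusted p = 4.46e-07). Wasf1 was at 38.3 and 38.4 CPM in vehicle somata and at 41.3 and 31.8 CPM in vehicle processes. The 2 compartments overlapped for Wasf1 (log2 fold change -0.07, SE 0.137, adjusted p = 0.702). Wasf2, the third WAVE gene, did not pass the test either (-0.09, SE 0.233, adjusted p = 0.785).

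The other subunits of the WAVE complex were spread around 0. Cyfip1, which links the complex to Rac1 and to translation, was lower in vehicle processes (log2 fold change -0.39, SE 0.0998, adjusted p = 0.00849). Cyfip2, its close relative, stood at 0.18 (SE 0.138, adjusted p = 0.316). Rac1 itself was higher in processes (0.36, SE 0.116, adjusted p = 0.0244), as was the Arp2/3 partner Cttn (0.28, SE 0.106, adjusted p = 0.0473). The Cttn call ended under the likelihood ratio test (adjusted p = 0.0505). Values of Rac1 and Cttn under other scalings are not given here. Of the 10 other genes listed for the WAVE complex and N-WASP, 2 were higher and 1 was lower. That was 30% called, below the 47.7% called among all tested genes. The largest value in this list was 0.49, so that the enrichment of Wasf3 was above that of every other gene of this list.

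Ppp1r9b and Ppp1r9a encode spinophilin and neurabin, paralogous scaffolds that bind actin filaments and bring protein phosphatase 1 to the spine. Ppp1r9b was at 112 and 107 CPM in vehicle somata and at 697 and 452 CPM in vehicle processes. Both process libraries were above both somata libraries and far apart from each other, at 575 ± 173 CPM (SD, n = 2), and the log2 fold change was 2.39 (SE 0.189, adjusted p = 3.95e-06). Ppp1r9a was at 35.7 and 34.3 CPM in vehicle somata and at 44.5 and 43.6 CPM in vehicle processes. The groups did not overlap, but the change was small (0.33, SE 0.124, adjusted p = 0.0468) and ended above 0.05 under most alternative settings. Ppp1ca, a catalytic subunit of the phosphatase that both bind, stood at 0.00 (SE 0.120, adjusted p = 0.987).

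Srcin1 encodes p140Cap, an inhibitor of Src kinase that also binds the microtubule tip protein EB3 in spines. It was at 24.8 and 25.3 CPM in vehicle somata and at 165 and 112 CPM in vehicle processes. The process libraries were far above the somata libraries and also far apart from each other (138 ± 37.4 CPM, SD, n = 2). The log2 fold change was 2.46 (SE 0.162, adjusted p = 1.39e-06).

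Limk1, the kinase that inactivates cofilin, was at 25.5 and 23.6 CPM in vehicle somata and at 71.7 and 49.3 CPM in vehicle processes (log2 fold change 1.30, SE 0.187, adjusted p = 0.000236). Its paralog Limk2 was higher in processes as well (0.85, SE 0.120, adjusted p = 0.000218). Cfl1, the main cofilin of neurons, was at 289 and 325 CPM in vehicle somata and at 417 and 402 CPM in vehicle processes. Every process library was above every somata library, by a log2 fold change of 0.42 (SE 0.116, adjusted p = 0.0129). Cfl2 stood 0.56 higher (SE 0.122, adjusted p = 0.00343), and the cofilin phosphatase gene Ssh1 was near the threshold (0.47, SE 0.182, adjusted p = 0.0558, or 0.0344 with the block). The call for Cfl1 was lost under upper-quartile scaling (0.21, adjusted p = 0.138) and without replicate 1 of vehicle somata (0.33, adjusted p = 0.117).

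Actb, which encodes β-actin, was at 708 and 805 CPM in vehicle somata and at 743 and 729 CPM in vehicle processes, where the process values fell between those of somata. Its log2 fold change was -0.04 (SE 0.125, adjusted p = 0.812). Dbn1, which encodes drebrin, a side-binding protein of spine actin, was at 56.9 and 55.9 CPM in vehicle somata and at 65.5 and 56.3 CPM in vehicle processes (0.11, SE 0.115, adjusted p = 0.447). Actb and Cfl1 have near-identical copies and processed pseudogenes, and the reads of such copies are of uncertain origin. In the later GRCr8 annotation Dbn1, Baiap2 and Wasf3 overlap other annotated genes, and the sources used here do not say whether strand was used in counting, so reads shared with those genes cannot be told apart.

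Baiap2 encodes IRSp53, a membrane-bending adaptor between Rac1, the WAVE complex and the postsynaptic scaffold. It was the member with the lowest process-to-somata ratio, at 23.6 and 29.0 CPM in vehicle somata and at 20.4 and 19.5 CPM in vehicle processes. The groups did not overlap, with a log2 fold change of -0.40 (SE 0.134, adjusted p = 0.0297). The call ended under DESeq2 (adjusted p = 0.0941) and without replicate 2 of vehicle somata (-0.25, adjusted p = 0.228) or either library of vehicle processes (adjusted p = 0.0739 and 0.117). Mtss1l, a relative with the same kind of membrane-binding domain, had the largest rise in processes among 91 other tested actin genes (2.45, SE 0.161, adjusted p = 1.33e-06).

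**Figure D2:**
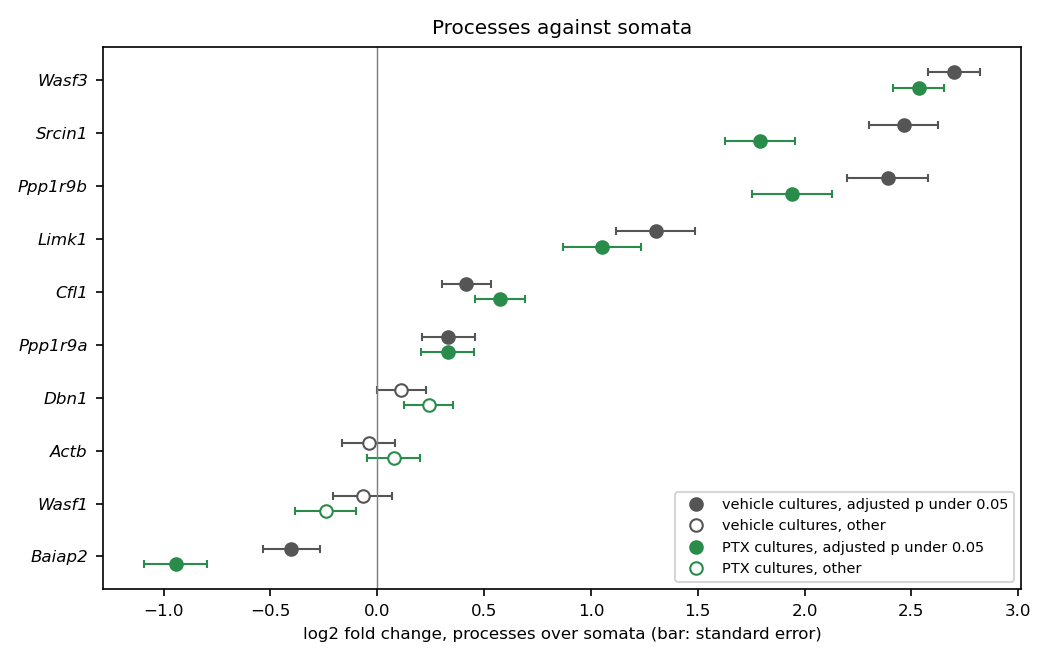
Log2 fold change of processes over somata for the 10 genes, in vehicle cultures (grey) and in PTX cultures (green). Points are estimates of the quasi-likelihood fit, bars are standard errors, and filled points have an adjusted p under 0.05. Wasf3, Srcin1 and Ppp1r9b lie at 2.39 to 2.70 in vehicle cultures and at 1.79 to 2.53 in PTX cultures, and Baiap2 lies lowest in both.

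In PTX cultures the same 7 of 10 mRNAs were called, 6 higher and 1 lower in processes, while 49.8% of all tested genes were called, 25.7% higher and 24.0% lower. The order was led again by Wasf3 at 2.53 (SE 0.121, adjusted p = 4.72e-07), followed by Ppp1r9b at 1.94 (SE 0.186, adjusted p = 1.37e-05) and Srcin1 at 1.79 (SE 0.164, adjusted p = 9.76e-06). Limk1 stood at 1.05 (SE 0.183, adjusted p = 0.000813) and Cfl1 at 0.57 (SE 0.116, adjusted p = 0.00206). Baiap2 was at 17.95 and 18.73 CPM in somata after PTX and at 9.52 and 9.54 CPM in processes, a process level of 52.0% of that in somata (log2 fold change -0.94, SE 0.146, adjusted p = 0.00038). Ppp1r9a stood at 0.33 (adjusted p = 0.0491), a call that ended in most alternatives. Actb, at 0.08 (SE 0.125, adjusted p = 0.633), and Wasf1, at -0.24 (SE 0.144, adjusted p = 0.187), did not pass the test. With upper-quartile scaling in place of TMM, Wasf1 was called lower by the quasi-likelihood test (-0.42, adjusted p = 0.0286). With the replicate number added to the fit as a block, Dbn1 was called too (0.24, adjusted p = 0.0407, against 0.106 without the block), which made 8 of 10 where 59.5% of all genes were called. In vehicle cultures the block left 7 of 10 called, against 57.8% of all genes.

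These directions are relative to the scaling. With scaling by library size only, which counts the mitochondrial rRNA, the median log2 fold change of all genes was -1.86 in vehicle and -1.87 in PTX cultures, and in vehicle cultures 193 genes were called higher in processes and 13268 lower. With that scaling Limk1 had a value of -0.52 and Cfl1 one of -1.39 in vehicle cultures, below 0 but above the median of all genes, as were Dbn1 at -1.70 and Ppp1r9a at -1.47, and in PTX cultures Srcin1 at -0.03. Ppp1r9b stood at 0.11 in PTX cultures and lost its call (quasi-likelihood test, adjusted p = 0.467). Wasf1 lay below the medians, at -1.89 in vehicle and -2.06 in PTX cultures, and was called lower in both. With upper-quartile scaling, 2750 genes were called higher and 4704 lower in vehicle cultures, 2904 and 4768 in PTX cultures, against 3688 and 3135, and 3680 and 3441, with TMM scaling.

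After PTX, 3 of the 10 mRNAs fell in processes: Srcin1, Baiap2 and Wasf1, each to between 44.6% and 53.7% of its vehicle level. In somata Wasf1 and Baiap2 fell, to 60.6% and 69.6%. No member rose past the threshold in either compartment in this fit, while with the replicate block Limk1 rose in somata (adjusted p = 0.00774). In processes 3.74% of all tested genes were called, 1.64% higher and 2.10% lower. In somata 3.59% were called, 2.09% higher and 1.50% lower, which is 299 and 214 genes, against 351 and 141 with scaling by library size only. The median log2 fold change of the 10 genes was -0.30 in processes and -0.22 in somata, against -0.01 over all genes in each.

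Srcin1 was at 165 and 112 CPM in vehicle processes and at 61.3 and 62.1 CPM in PTX processes. The 2 PTX libraries were nearly equal and lay well below both vehicle libraries, which were far apart. The log2 fold change was -1.16 (SE 0.158, adjusted p = 0.00444), and it stayed between -1.42 and -0.86 and past the threshold when each of the 8 libraries was left out. Within replicate numbers the change was -1.42 for replicate 1 and -0.85 for replicate 2. In somata Srcin1 was at 24.8 and 25.3 CPM with vehicle and at 17.9 and 17.8 CPM with PTX. The somatic groups did not overlap, but the value of -0.49 (SE 0.161, adjusted p = 0.148) passed the test only in some settings, among them the replicate block (adjusted p = 0.00756) and the fit of the 4 somata libraries alone (adjusted p = 0.0366).

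Baiap2 was at 20.4 and 19.5 CPM in vehicle processes and at 9.52 and 9.54 CPM after PTX, from 183 and 166 reads to 83 and 95. The groups lay apart by much more than their spread (log2 fold change -1.06, SE 0.154, adjusted p = 0.00537). Without replicate 1 of vehicle processes the value was -1.03 and the adjusted p 0.0513. In somata it went from 23.6 and 29.0 CPM to 17.95 and 18.73 CPM (-0.52, SE 0.126, adjusted p = 0.0493). That somatic call sat at the threshold: it ended when any 1 of the 8 libraries was left out (adjusted p = 0.0585 to 0.405) and under DESeq2 (adjusted p = 0.102), and with the replicate block it had an adjusted p of 0.00149.

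Wasf1 was at 38.3 and 38.4 CPM in vehicle somata and at 22.1 and 24.4 CPM in PTX somata. In processes it was at 41.3 and 31.8 CPM with vehicle and at 18.5 and 20.8 CPM with PTX. All 4 PTX libraries lay below all 4 vehicle libraries, with a log2 fold change of -0.72 in somata (SE 0.133, adjusted p = 0.0141) and -0.90 in processes (SE 0.148, adjusted p = 0.0102). The somatic call ended without any 1 of the 4 somata libraries (-0.80 to -0.66, adjusted p = 0.0548 to 0.136). The process call ended without replicate 1 of vehicle (-0.69, adjusted p = 0.0768) or of PTX (-0.82, adjusted p = 0.0787). Of the paralogs, Wasf3 was at 209 and 181 CPM in vehicle and at 164 and 147 CPM in PTX processes (-0.32, SE 0.114, adjusted p = 0.171), and Wasf2 had a value of 0.29 (SE 0.252, adjusted p = 0.634). For Wasf3 the PTX libraries lay below the vehicle libraries, and with the block the adjusted p was 0.0183. In somata Wasf3 stood at -0.16 (SE 0.117, adjusted p = 0.613).

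**Figure D3:**
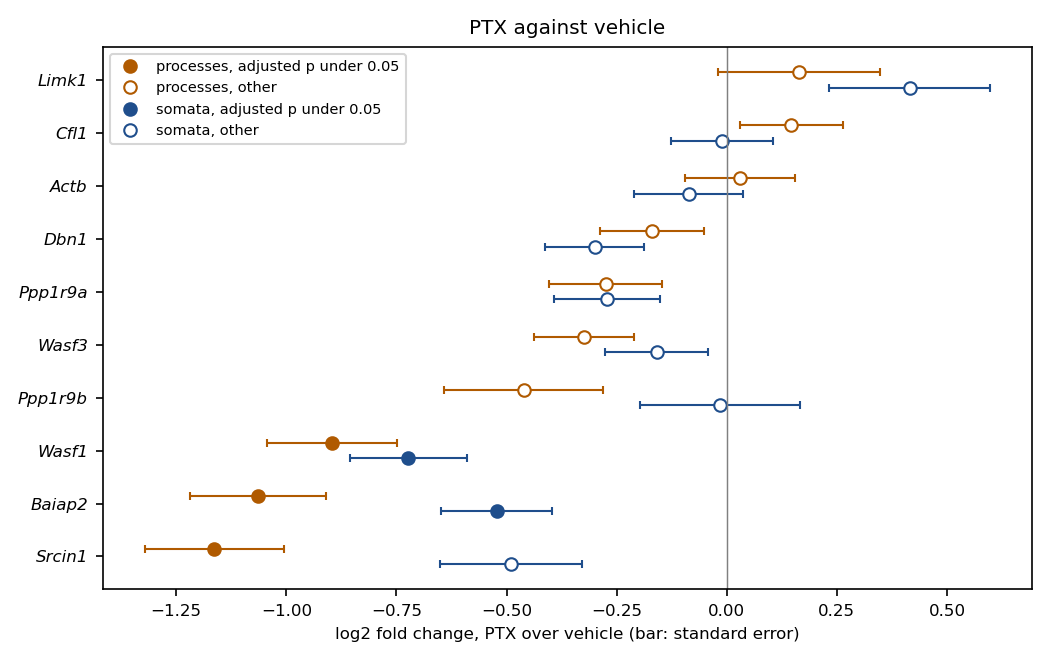
Log2 fold change of PTX over vehicle for the 10 genes, in processes (orange) and in somata (blue). Points are estimates of the quasi-likelihood fit, bars are standard errors, and filled points have an adjusted p under 0.05. Srcin1, Baiap2 and Wasf1 lie at -1.16 to -0.90 in processes, while Actb and Cfl1 lie within 0.15 of 0 in both compartments.

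Baiap2 and Wasf1 were called lower in both compartments without the block, and their promoter sequences are shown for that reason. With the block Srcin1 was called lower in both as well. They are from RefSeq on assembly GRCr8, a later assembly than the Rnor_6.0 build named for the reads, and run from 250 bases before to 50 bases after the start that the RefSeq table uses, 5′ to 3′ on the gene's strand. Capitals mark a TATA box (TATAAA) or a GC box (GGGCGG on either strand).
Baiap2, chr10:105721306-105721605, plus strand: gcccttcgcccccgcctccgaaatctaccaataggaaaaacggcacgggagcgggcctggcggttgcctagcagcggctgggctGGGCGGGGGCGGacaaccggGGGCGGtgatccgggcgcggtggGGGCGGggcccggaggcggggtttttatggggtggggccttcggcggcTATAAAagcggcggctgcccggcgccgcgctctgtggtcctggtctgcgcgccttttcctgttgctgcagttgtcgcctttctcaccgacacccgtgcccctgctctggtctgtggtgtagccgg
Wasf1, chr20:45908208-45908507, plus strand: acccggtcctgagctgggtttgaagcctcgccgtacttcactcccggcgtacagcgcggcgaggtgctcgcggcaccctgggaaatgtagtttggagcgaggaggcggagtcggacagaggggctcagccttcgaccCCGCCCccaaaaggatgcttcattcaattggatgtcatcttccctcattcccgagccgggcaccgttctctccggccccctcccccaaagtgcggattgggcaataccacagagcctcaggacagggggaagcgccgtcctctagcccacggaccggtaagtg
The Baiap2 window held 1 TATA box, 75 to 70 bases before the start, and 4 GC boxes, and 70.0% of its bases were G or C. The Baiap2 gene as annotated in RefSeq begins at position 105721371, before the start used, so these boxes lie inside the annotated gene. The Wasf1 window held 1 GC box, on the other strand, and no TATA box, with 63.3% G and C.

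Promoters of 8 of the 10 members were in the RefSeq table, and those of Actb and Srcin1 were not. The Ppp1r9a window, chr4:33988577-33988876, lies inside the gene as annotated, which begins at position 33936949. The sequence just before that position was not searched. The median G and C content of the 8 was 69.2%, against 51.7% over all 33469 promoters of the table. None of the 8 held the cAMP response element TGACGTCA, its half-site TGACG, an AP-1 site (TGACTCA), an E-box (CACGTG) or an SRF CArG box, searched on both strands. These letters occur in 1.83%, 21.2%, 4.63%, 6.42% and 1.64% of all promoters of this length. A GC box was in 7 of the 8, all but Ppp1r9b, and in 33.1% of all promoters, and a TATA box in 14.2% of all. The half-site lies within the full cAMP response element, so these 2 searches overlap.

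The other scaffold and cofilin-cycle members did not pass the test for PTX in the fit described, and some of them passed in other settings. Ppp1r9b was at 697 and 452 CPM in vehicle processes and at 453 and 383 CPM after PTX. The groups touched, with 1 vehicle and 1 PTX library nearly equal (-0.46, SE 0.180, adjusted p = 0.224), and 1 library decided the value. It was -0.74 (adjusted p = 0.0274) without replicate 2 of vehicle processes and -0.12 without replicate 1. The adjusted p was 0.00864 with the block and 0.0194 without a filter on low counts. In somata Ppp1r9b was at 112 and 107 CPM with vehicle and at 113 and 104 CPM with PTX (-0.02, SE 0.181, adjusted p = 0.985). Ppp1r9a stood at -0.28 in processes (SE 0.128, adjusted p = 0.318) and at -0.27 in somata (SE 0.121, adjusted p = 0.31), below its vehicle libraries in both.

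Limk1 was the only member with a somatic value well above 0. It was at 25.5 and 23.6 CPM in vehicle somata and at 35.5 and 29.9 CPM in PTX somata. The PTX libraries were the higher ones (0.42, SE 0.182, adjusted p = 0.301), and the call was made with the block (adjusted p = 0.00774) and without a filter on low counts (adjusted p = 0.0442). In processes it was at 71.7 and 49.3 CPM with vehicle and at 76.9 and 58.8 CPM with PTX, where the groups overlapped (0.16, SE 0.184, adjusted p = 0.724). Its substrate Cfl1 stood at -0.01 in somata (SE 0.116, adjusted p = 0.984) and at 0.15 in processes (SE 0.116, adjusted p = 0.596).

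Actb stood at -0.09 in somata (SE 0.124, adjusted p = 0.84) and at 0.03 in processes (SE 0.125, adjusted p = 0.947), with overlapping groups in both. Dbn1 was at 56.9 and 55.9 CPM in vehicle somata and at 46.0 and 45.6 CPM after PTX. Its replicates were close and the groups lay apart (-0.30, SE 0.112, adjusted p = 0.212), and the block gave an adjusted p of 0.0338. In processes the Dbn1 groups overlapped (-0.17, SE 0.118, adjusted p = 0.532). With the block, 5 of 10 members were called in somata, Limk1 higher and Wasf1, Baiap2, Srcin1 and Dbn1 lower, where 14.0% of all genes were called. In processes the block called 5 of 10, all lower, namely Srcin1, Baiap2, Wasf1, Ppp1r9b and Wasf3, where 11.2% of all genes were called.

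Whether PTX acted differently on an mRNA in the 2 compartments was tested as the PTX change in processes minus that in somata. None of the 10 members passed (adjusted p = 1 for each), and the quasi-likelihood test called 0% of all genes, with 572 genes (4% of all) at an unadjusted p under 0.05, 2 members among them, and 4 genes called by DESeq2. The difference was -0.67 for Srcin1 (SE 0.225, unadjusted p = 0.0125 from the edgeR fit) and -0.54 for Baiap2 (SE 0.199, unadjusted p = 0.0206 from the edgeR fit). With the block the adjusted p was 0.156 for Srcin1 and 0.368 for Baiap2, and 0.105% of all genes were called. The difference was -0.17 for Wasf1 (SE 0.199), -0.45 for Ppp1r9b (SE 0.255) and -0.25 for Limk1 (SE 0.259). For the other members it was 0.12 for Actb (SE 0.176), 0.16 for Cfl1 (SE 0.164), 0.13 for Dbn1 (SE 0.163), -0.16 for Wasf3 (SE 0.163) and -0.00 for Ppp1r9a (SE 0.177). The larger fall of Srcin1 in processes is therefore not shown by this test to differ from its somatic value. With 2 libraries per condition the test had little power, and without the block it called no gene. The paper names Srcin1 among mRNAs lowered in processes and also reports qPCR for its differential regulation by PTX.

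Neuron markers were also lower after PTX. Their summed level, carried mostly by Map2, was 3854 to 4545 CPM in PTX processes against 5083 to 5424 CPM in vehicle processes. It was 1493 to 1637 CPM in PTX somata against 1670 to 1841 CPM in vehicle somata. In processes 5 of the 6 had a negative log2 fold change, with a median of -0.42, and none was called, while with the block 5 of the 6 were lower. In somata the median was -0.27, with 1 of 6 called lower, or 3 of 6 with the block. Of all tested genes 3.74% were called in processes and 3.59% in somata, or 11.2% and 14.0% with the block. Single neuron markers ranged from -0.53 to 0.13 in processes and from -0.67 to 0.13 in somata. Astrocyte markers summed to 9747 to 10875 CPM in PTX processes and 2746 to 3687 CPM in PTX somata, with medians of -0.11 and -0.26. The part of cell composition in the members' values was not tested.

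Across 9 further lists of actin genes, 91 of 94 genes were tested. After PTX in processes 4 of these rose and 3 fell, with a median log2 fold change of -0.01. That was 7.69% called, against 3.74% of all tested genes. Git1, a scaffold of PIX exchange factors, and Trio, an exchange factor for Rac, rose by 1.04 (SE 0.152, adjusted p = 0.00538) and 0.84 (SE 0.106, adjusted p = 0.00392). Wipf3, a partner of N-WASP, fell by 1.30 on the log2 scale (SE 0.206, adjusted p = 0.00779) and Srgap3, a GTPase-activating protein for Rac1, by 0.49 (SE 0.113, adjusted p = 0.0395). The crosslinkers Actn1 and Flna also rose, and Mtss1 also fell. These 3 are named because the count is small and were chosen after their values were seen.

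In somata after PTX no gene of the 9 lists rose and 3 fell, with a median of -0.03. That was 3.3% of the genes tested in these lists, near the 3.59% called among all genes. Wipf3 fell by 0.88 (SE 0.173, adjusted p = 0.0194) and the IRSp53 relative Mtss1 by 0.54 on the log2 scale (SE 0.100, adjusted p = 0.0147), and Srgap3 was the third, named after its value was seen. With the block, 5 rose and 12 fell in somata, and 9 rose and 8 fell in processes. That was 18.7% called in each compartment, against 14.0% of all genes in somata and 11.2% in processes. None of the genes of the cofilin cycle, the Arp2/3 complex or the actin monomer lists was called after PTX in either compartment in the fit without the block. The WAVE subunit gene Cyfip1 had a value of -0.32 in somata (SE 0.0970, adjusted p = 0.117, or 0.0135 with the block) and of 0.01 in processes (SE 0.102, adjusted p = 0.988). Cyfip2 had a value of -0.28 in somata (SE 0.137, adjusted p = 0.365, or 0.0335 with the block) and of -0.42 in processes (SE 0.139, adjusted p = 0.143, or 0.00332 with the block).

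Between compartments, 40 of the 91 genes were higher and 12 lower in vehicle processes, with a median log2 fold change of 0.26. In PTX cultures 39 were higher and 7 lower, with a median of 0.22. The share called was 57.1% in vehicle and 50.5% in PTX cultures, against 47.7% and 49.8% of all tested genes. The median over all tested genes was -0.05 in both. In PTX cultures the share called was thus near that of all genes. Gsn, the severing protein gelsolin, stood at -0.85 (SE 0.269, adjusted p = 0.0241) and the crosslinker Actn2 at -0.68 (SE 0.176, adjusted p = 0.00872). In PTX cultures Epb41l1 and Myo6, a membrane-skeleton protein and a myosin motor, stood at 2.22 (SE 0.188, adjusted p = 5.67e-06) and 2.19 (SE 0.112, adjusted p = 5.78e-07). Actn2 was at -1.20 there (SE 0.190, adjusted p = 0.000427) and the Rac activator Tiam2 at -0.74 (SE 0.188, adjusted p = 0.00793).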

How the data were processed

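Per the methods, the authors trimmed reads with Trimmomatic, aligned them with Subread subjunc to Rnor_6.0, counted them with featureCounts on Ensembl genes and summed the counts by symbol. The submitters' processing notes name STAR, featureCounts and edgeR instead. The deposited values are raw counts for 28909 symbols. The deposited tables of the authors' PTX comparisons hold fold changes and p-values and were not used.

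The filter on low counts asked for over 20 reads in 2 or more libraries. All 8 libraries were fitted with 1 coefficient per condition in edgeR 4.0.16 (R 4.3.3) with TMM scaling (factors 1.81 to 1.92 in somata, 0.487 to 0.571 in processes), and tested with glmQLFTest, two-sided, with Benjamini-Hochberg adjustment over 14309 genes within each contrast and a threshold of 0.05. Standard errors were derived from the log2 fold change and the F statistic. The scripts were tested on simulated data.

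Replicate libraries differed by more than sampling noise (chi-square per degree of freedom 9.11 to 21.1). The labels give replicate numbers without saying what they mark. Differences between replicate 2 and replicate 1 correlated between conditions with r = 0.274 to 0.540, so the numbers were taken to pair the libraries. A block for the number lowered the common dispersion from 0.0132 to 0.00459. The main fit left the block out because the study's methods describe a model without one, and the block was run as an alternative.

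As alternatives, DESeq2 1.42.0, a likelihood ratio test and the block were run, as were library size only, upper quartile, no mitochondrial genes, no filter, a floor of 10 reads in each library, a fit of the 4 compared libraries alone, and the omission of each library, where a lone library is assumed to vary like the others. All 10 genes are given in every contrast. Of the other lists the text names, per contrast, the 2 largest rises and 2 largest falls past the threshold (mean level 5 CPM or more), and 10 direct partners. Of the genes that this rule names, 1 is not reported here. The members, lists and tests were chosen with earlier results of these data known. Promoters came from RefSeq tables. Genome and protein sequences were not used here.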

Additional observations from a re-analysis of the deposited data

How the results depend on the processing

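Genes outside the mitochondrial genome shared fewer counts in processes than in somata, and the effect of that depth on the calls was not tested. With 2 libraries per condition, several calls turned on 1 library. Over the members' values, 743 alternatives kept direction and side of the threshold, 47 lost the call, 17 gained it and 33 changed sign.

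In somata after PTX, 513 genes were called, against 972 with the likelihood ratio test, 1141 without a filter, 2001 with the replicate block, and 116 to 568 with 1 library left out. Members called there were 2, against 1 with DESeq2, 1 with library size only, 4 without a filter, 5 with the block, and 0 to 2 with 1 library left out. In processes after PTX, 535 genes were called, against 949, 1129 and 1601 in that order of settings, 299 with only the 4 libraries compared, and 97 to 481 with 1 library left out. Members called there were 3, against 5 with the block and 1 to 4 with 1 library left out. Between compartments library size only called 13461 genes in vehicle and 13496 in PTX cultures, against 6823 and 7121. For the interaction 0 genes were called, against 4 with the likelihood ratio test, 4 with DESeq2, 10 without a filter and 15 with the block. The block changed no call of a member other than those given beside the results.

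With library size only these values changed sign: after PTX in somata Cfl1 0.055 and Ppp1r9b 0.052, in vehicle processes over somata Cfl1 -1.39, Dbn1 -1.70, Ppp1r9a -1.47 and Limk1 -0.52, and in PTX processes over somata Actb -1.75, Cfl1 -1.25, Dbn1 -1.58, Srcin1 -0.034, Ppp1r9a -1.50 and Limk1 -0.78. That scaling counts mitochondrial rRNA, and the part of this in the sign changes was not tested. With upper quartile Dbn1 in vehicle cultures was -0.092 and Actb in PTX cultures -0.10, and the interaction of Ppp1r9a was 0.023, or 0.0058 with DESeq2; the cause was not tested. With 1 library left out, signs changed within these ranges: Cfl1 -0.097 to 0.063 and Ppp1r9b -0.082 to 0.042 after PTX in somata, Actb -0.033 to 0.089 and Limk1 -0.082 to 0.46 after PTX in processes, Actb -0.13 to 0.047, Dbn1 -0.0012 to 0.22 and Wasf1 -0.27 to 0.11 between vehicle compartments, Actb -0.0028 to 0.16 between PTX compartments, and for the interaction Ppp1r9a -0.15 to 0.17, Wasf1 -0.35 to 0.029 and Limk1 -0.50 to 0.046.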
